A study of Mus musculus with 24 samples.

Results

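Granulocyte and monocyte progenitors of mice without the transcription factor Ikaros were compared with the stem cell fraction of the same genotype, across 18193 genes. The comparison took the 3 arrays titled KO LK GFPhi and the 3 titled KO LSK GFPneg-lo, which are 6 of the 24 arrays of the series. The labels name LK GFPhi as GMP, the granulocyte and monocyte progenitors, and LSK GFPneg-lo as HSC, the hematopoietic stem cells. LSK cells lack lineage antigens and carry Sca-1 and Kit, and LK cells lack lineage antigens and carry Kit. Both were sorted by a GFP reporter built on regulatory sequence of the Ikaros gene, as GFP-high for the progenitors and as GFP-negative to very low for the stem cell fraction. The KO groups combine the Ikaros null allele (line I74, on C57BL/6 x 129SV) with the B-p-GFP-C transgene (line on C57BL/6 x C3H). The wild-type (WT) groups carry the transgene alone, so the null allele and the 129SV background cannot be told apart wherever KO and WT differences are compared. Each group had 3 arrays called biological replicates, and the labels do not say whether an array is 1 animal or a pool. The p-values measure only the spread between arrays within the 8 groups of the series.

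Ikaros is a zinc finger protein that binds DNA, works with chromatin remodelling complexes and is required for lymphocyte development. In normal bone marrow, stem cells lose self-renewal regulators as they mature, and progenitors of granulocytes and monocytes gain C/EBP and PU.1 family factors, which drive genes for granule proteases and for growth factor receptors. The comparison asks how far this step of gene expression is found in cells that have no Ikaros.

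Values are log2 signals from Affymetrix arrays, and a difference is the mean of KO LK GFPhi minus the mean of KO LSK GFPneg-lo, in log2 units, with its limma standard error and n = 3 arrays per group. That error pools the spread of all 24 arrays in 8 groups, so a gene has the same one in KO and WT. It can understate the spread of the 6 arrays. The eosinophil gene Epx has 0.66 in both, with SDs of 2.44 in KO LK GFPhi and 0.19 in WT LK GFPhi. A gene was called at a limma adjusted p below 0.05. Of 18193 genes, 2060 (11.3%) were called, 875 higher (4.81%) and 1185 lower (6.51%) in the progenitors. These shares are the ones to set beside each list count of the KO comparison below. Lists and members were chosen with earlier results of these data known, so each such count is a description and not a test. At least 2-fold differences were found for 203 of the higher genes (1.12% of all) and 341 of the lower ones (1.87%). The median difference over all genes was 0.07. A fit of these 6 arrays alone called 783 genes, and the count was 1179 without KO LSK GFPneg-lo replicate 1. Between arrays, correlations over all genes (a description, since genes are not replicates) were 0.986 to 0.995 within the stem cell fraction, 0.981 to 0.988 within the progenitors and 0.962 to 0.979 between them.

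Ikzf1, the gene of Ikaros, read 8.02, 7.23 and 7.31 on the KO stem cell arrays and 7.83, 6.51 and 7.36 on the KO progenitor arrays. All 6 values lay below the 10.99 to 11.73 of the WT arrays of the same populations. Fcgr3, the Fc receptor used to define GMP, read 6.10, 6.51 and 6.62 in the stem cell fraction and 9.38, 9.58 and 9.14 in the progenitors, and it rose by 2.96 ± 0.38 (SE, adjusted p = 2.84e-05). Kit, the receptor both gates require, differed by -1.04 ± 0.38 (adjusted p = 0.0843), and its 2 groups did not overlap. Kit was called lower without KO LK GFPhi replicate 1 (-1.38, adjusted p = 0.0307) and with its probe sets averaged (-0.57, adjusted p = 0.0207). Cd34, a progenitor antigen, differed by -0.08 ± 0.40 (adjusted p = 0.914). Of 11 antigens of mature lineages measured, 1 passed the test, near the 11.3% of all genes. It was Cd8a, which rose by 0.35 ± 0.08 (adjusted p = 0.0098) and lost the call without KO LSK GFPneg-lo replicate 1 (0.32, adjusted p = 0.0506) or without KO LK GFPhi replicate 3 (0.30, adjusted p = 0.0513). Ly6a, which encodes Sca-1, was not analysed here. In bulk samples, fewer cells of a type and less RNA per cell cannot be told apart.

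**Figure D1:**
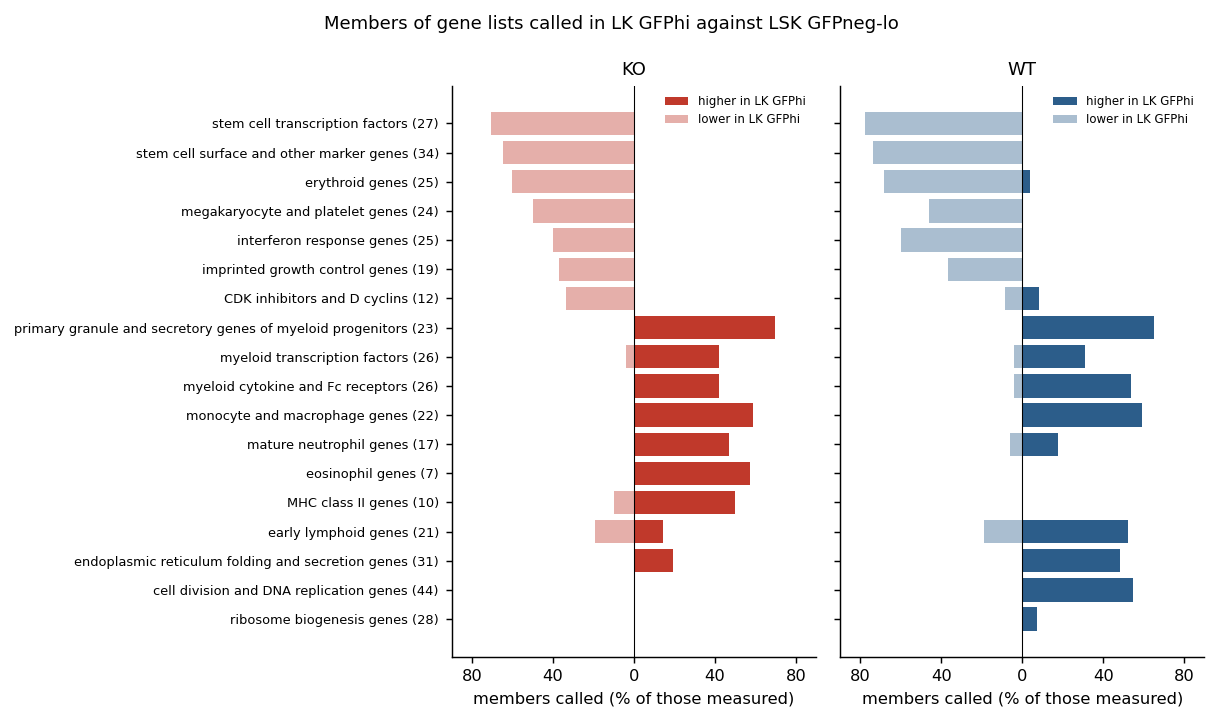
Share of the measured members of 18 gene lists that were called higher (right of 0) or lower (left of 0) in LK GFPhi than in LSK GFPneg-lo, in KO (left panel) and WT (right panel), with the number of measured members in brackets. In both panels the stem cell, erythroid and megakaryocyte lists extend to the left and the granule and monocyte lists to the right, while the cell division list has a bar in WT and none in KO.

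Genes of granule proteins rose in the KO progenitors. Of 23 measured genes of primary granules and secretion, 16 were higher and 0 lower, and the median difference was 1.43, against 4.81% higher and a median of 0.07 over all genes. Elane, Prtn3, Ctsg and Mpo encode neutrophil elastase, proteinase 3, cathepsin G and myeloperoxidase, the classic products of this stage. The bases upstream of their RefSeq starts are shown because these genes moved together, with those of Lcn2 and Igsf6, which are among the largest rises. Each line gives 250 bases on the gene's strand, 5′ to 3′, in GRCm38.p6, and capitals mark matches to the PU.1 motif AGGAAG or the C/EBP motif TTNNGNAA on either strand.
Elane (chr10:79886062-79886311, plus strand): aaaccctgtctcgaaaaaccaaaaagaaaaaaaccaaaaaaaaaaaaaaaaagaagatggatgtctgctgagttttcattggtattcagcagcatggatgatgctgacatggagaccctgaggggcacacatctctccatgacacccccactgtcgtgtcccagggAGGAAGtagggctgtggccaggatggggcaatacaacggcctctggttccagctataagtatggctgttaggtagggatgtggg
Prtn3 (chr10:79879417-79879666, plus strand): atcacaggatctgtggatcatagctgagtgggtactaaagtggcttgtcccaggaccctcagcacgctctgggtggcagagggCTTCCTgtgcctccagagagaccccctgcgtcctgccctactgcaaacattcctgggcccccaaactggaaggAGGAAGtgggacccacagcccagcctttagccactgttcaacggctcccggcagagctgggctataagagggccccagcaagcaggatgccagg
Ctsg (chr14:56102575-56102824, minus strand): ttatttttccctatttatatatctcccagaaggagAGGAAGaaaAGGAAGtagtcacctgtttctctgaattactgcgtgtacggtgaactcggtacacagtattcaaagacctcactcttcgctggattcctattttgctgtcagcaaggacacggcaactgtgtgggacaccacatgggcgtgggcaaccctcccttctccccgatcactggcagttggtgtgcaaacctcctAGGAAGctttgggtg
Mpo (chr11:87793534-87793783, plus strand): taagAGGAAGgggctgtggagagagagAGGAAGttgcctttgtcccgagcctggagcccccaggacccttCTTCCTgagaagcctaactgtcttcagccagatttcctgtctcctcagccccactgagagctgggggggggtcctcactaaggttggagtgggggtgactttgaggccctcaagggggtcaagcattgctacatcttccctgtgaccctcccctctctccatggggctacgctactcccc
Lcn2 (chr2:32387740-32387989, minus strand): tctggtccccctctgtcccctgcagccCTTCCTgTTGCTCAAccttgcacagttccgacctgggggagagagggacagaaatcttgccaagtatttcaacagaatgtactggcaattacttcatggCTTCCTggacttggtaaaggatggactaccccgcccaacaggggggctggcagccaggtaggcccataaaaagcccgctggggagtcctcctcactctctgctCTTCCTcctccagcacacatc
Igsf6 (chr7:121074531-121074780, minus strand): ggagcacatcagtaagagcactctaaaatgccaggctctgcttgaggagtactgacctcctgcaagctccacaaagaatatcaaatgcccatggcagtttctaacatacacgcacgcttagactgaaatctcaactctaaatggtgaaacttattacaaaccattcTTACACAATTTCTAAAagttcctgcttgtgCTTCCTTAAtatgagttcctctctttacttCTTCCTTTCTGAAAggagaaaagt
The 4 granule protease and peroxidase genes and both others each hold at least 1 PU.1 match, with 3 in Ctsg, Mpo and Lcn2, 2 in Prtn3 and Igsf6 and 1 in Elane. C/EBP matches were found in Igsf6 (5, some of which overlap PU.1 matches or each other) and Lcn2 (1). Among the other largest rises, Cst7, F13a1 and part of the Dmkn promoters held PU.1 matches, and Ccr2, Epx and Mpeg1 held none. C/EBP matches stood in Ccr2, Cst7, Dmkn and part of the F13a1 promoters, and in neither Epx nor Mpeg1. Anxa3, Hp and Prg2 had no promoter in the table. PU.1 matches stand in 29.5% and C/EBP matches in 36.8% of all 32851 promoters of the table. Among the promoters of genes that this text's naming rule chose, the PU.1 motif was in 33 of 74 (44.6%) of the genes called higher and 15 of 54 (27.8%) of those called lower. The C/EBP motif was in 25 (33.8%) and 26 (48.1%) of these, the GATA motif AGATAA in 5 (6.76%) and 3 (5.56%) against 9.99% of all, and the Ikaros motif TGGGAA in 14 (18.9%) and 17 (31.5%) against 21.6% of all. A match is a stretch of letters and not evidence of binding.

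Elane read 7.50, 7.68 and 8.55 on the stem cell arrays and 12.49, 11.81 and 11.79 on the progenitor arrays. The groups lay far apart, and the rise was 4.12 ± 0.41 (17.4-fold, adjusted p = 1.37e-06). Ctsg read 10.74, 11.25 and 11.74 in the stem cell fraction and 14.10, 14.00 and 13.85 in the progenitors, a rise of 2.74 ± 0.29 (6.68-fold, adjusted p = 2.36e-06). Its 2 groups did not overlap either. Mpo went from 11.88, 12.41 and 12.71 to 14.06, 14.05 and 13.98 (1.69 ± 0.31, adjusted p = 0.0013), and Prtn3 from 12.69, 12.66 and 12.81 to 13.87, 13.89 and 13.63 (1.08 ± 0.27, adjusted p = 0.014). The progenitor values of Mpo and Ctsg lie close to the highest signal in the data, 14.5. Hp, the hemoglobin scavenger haptoglobin, rose by 4.35 ± 0.44 (20.4-fold, adjusted p = 1.41e-06), Igsf6, an immunoglobulin family receptor of myeloid cells, by 3.87 ± 0.38, and Cst7, the protease inhibitor cystatin F, by 3.10 ± 0.30. The 3 stem cell arrays lay below the 3 progenitor arrays for each of these genes.

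Some transcription factors of the myeloid lineage rose, while most of those measured did not pass the test. Of 26 measured, 11 were higher and 1, the ETS repressor gene Etv3, was lower (-0.63 ± 0.19), with a median of 0.36, and 7 were higher and 0 lower in the fit of the 6 arrays alone. Without KO LSK GFPneg-lo replicate 2 the count of higher genes was 7 too. Etv3 lost the call when KO LSK GFPneg-lo replicate 1 (-0.49) or 3 (-0.66) or KO LK GFPhi replicate 2 (-0.55) or 3 (-0.56) was left out. Cebpa, the factor required to form GMP, read 8.88, 9.09 and 9.40 in the stem cell fraction and 11.21, 11.00 and 10.54 in the progenitors. It rose by 1.79 ± 0.17 (3.46-fold, adjusted p = 1e-06). Irf8, which directs progenitors to monocytes, went from 6.89, 7.30 and 7.47 to 9.86, 10.13 and 10.29 (2.87 ± 0.31, adjusted p = 3.28e-06). Spi1, which encodes PU.1, went from 8.0, 8.22 and 8.20 to 9.51, 9.56 and 9.46 (1.37 ± 0.24, adjusted p = 0.000838). None of these 3 genes had overlapping arrays. Cebpd and Nfil3 rose by 1.55 ± 0.21 and 1.45 ± 0.19. Gfi1, a repressor needed for neutrophils, was called at 1.02 ± 0.30 (adjusted p = 0.0347), but its arrays overlapped. Gfi1 lost the call when KO LSK GFPneg-lo replicate 2 (0.75) or 3 (0.90), or KO LK GFPhi replicate 1 (0.86) or 2 (0.96), was left out, with adjusted p of 0.0971 to 0.161. Myc, a driver of growth, differed by 0.50 ± 0.19 (adjusted p = 0.105), and was called higher without KO LSK GFPneg-lo replicate 1 (0.73, adjusted p = 0.0211), with array weights (0.65, adjusted p = 0.0102) and after quantile normalization (0.59, adjusted p = 0.0275).

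Many receptor and monocyte genes rose. Of 26 myeloid cytokine and Fc receptor genes, 11 were higher and 0 lower (median 0.57), and of 22 monocyte and macrophage genes 13 were higher and 0 lower (median 1.09). In the fit of the 6 arrays alone these counts were 9 and 6. Csf1r, the receptor for the monocyte growth factor M-CSF, read 9.12, 9.90 and 10.29 in the stem cell fraction and 12.41, 12.65 and 12.75 in the progenitors (2.83 ± 0.24, adjusted p = 1.92e-07). Ccr2, the chemokine receptor of monocytes, read 7.55, 8.19 and 8.42 against 11.27, 11.77 and 11.58 (3.49 ± 0.20, adjusted p = 2.66e-09). Neither gene's groups overlapped. Tyrobp, the adaptor of activating myeloid receptors, rose by 2.73 ± 0.22, and Cd14, the co-receptor for lipopolysaccharide, by 2.43 ± 0.22. Csf3r, the receptor for G-CSF, differed by 0.41 ± 0.17 (adjusted p = 0.134) with overlapping arrays. Without KO LSK GFPneg-lo replicate 1, Csf3r passed the test (0.62, adjusted p = 0.0264). Other large rises were F13a1, coagulation factor XIII of monocytes (3.76 ± 0.38), Dmkn, an epithelial secreted protein (3.63 ± 0.31), Mpeg1, a pore-forming protein of macrophages (3.58 ± 0.44), and Anxa3, an annexin of neutrophils (3.50 ± 0.36). Mpeg1 read 10.53 and 10.91 on progenitor replicates 1 and 3 and 8.86 on replicate 2.

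**Figure D2:**
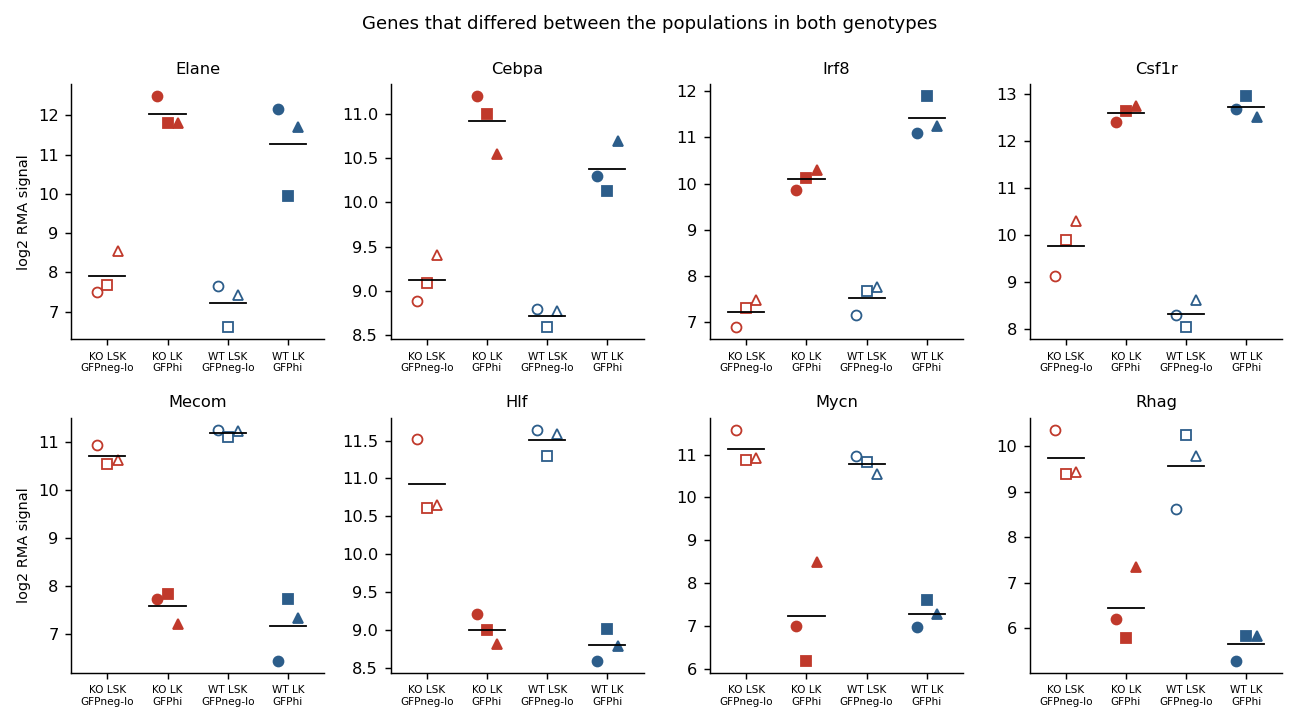
Log2 RMA signal of 8 genes on each array (circle, replicate 1; square, 2; triangle, 3; line, group mean), KO in red and WT in blue, open symbols for LSK GFPneg-lo and filled for LK GFPhi; each panel has its own axis, which does not start at 0. Elane, Cebpa, Irf8 and Csf1r lie higher on every LK GFPhi array than on every LSK GFPneg-lo array of the same genotype, and Mecom, Hlf, Mycn and Rhag lie lower.

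Stem cell regulators fell. Of 27 measured stem cell transcription factors, 19 were lower and 0 higher in the KO progenitors, with a median of -0.94, and 6.51% of all genes were lower. Mycn, a MYC family factor of stem cells, read 11.58, 10.87 and 10.92 in the stem cell fraction and 7.0, 6.18 and 8.48 in the progenitors, and fell by 3.90 ± 0.36 (15.0-fold, adjusted p = 5.84e-07). Mecom, which encodes the EVI1 factor needed for stem cell maintenance, read 10.94, 10.54 and 10.62 against 7.72, 7.82 and 7.21 (-3.11 ± 0.25, adjusted p = 7.77e-08). Both genes' groups stood apart by more than 2 log2 units. Meis1, a partner of HOX proteins, differed by -2.37 ± 0.30 and Hlf, a bZIP factor of stem cells, by -1.92 ± 0.22. Prdm16, chosen after its values were seen, differed by -2.46 ± 0.31 (adjusted p = 2.58e-05). Hoxa9 differed by -0.63 ± 0.21 (adjusted p = 0.0604). Gata2, a zinc finger factor of stem and mast cells, fell by 0.82 ± 0.18 (adjusted p = 0.00493), from 11.85, 12.29 and 11.96 to 11.11, 11.31 and 11.22. Averaging all probe sets of a gene gave smaller falls for Mycn (-1.23) and Mecom (-1.12), since their other probe sets lie nearer 0, and both stayed called. The same averaging took the falls of Slamf1 to -1.03, Ndn to -1.50, Mmrn1 to -1.69, Meg3 to -0.91, Ets1 to -0.83, Bach2 to -0.68, Itgb3 to -0.73, Col4a1 to -1.15 and Parp14 to -0.67. It took the rises of Ccr2 to 1.96, Cebpd to 0.90 and Satb1 to 0.82, and all 12 genes stayed called.

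Surface and other marker genes of stem cells gave 22 lower and 0 higher of 34 (median -1.01), and 16 lower in the fit of the 6 arrays alone. Mmrn1, a multimerin of platelets and stem cells, read 10.37, 10.41 and 10.27 in the stem cell fraction and 6.86, 6.67 and 7.57 in the progenitors (-3.32 ± 0.29, adjusted p = 2.25e-07). Slamf1, the CD150 antigen of long-term stem cells, went from 9.59, 10.11 and 10.23 to 7.34, 7.33 and 8.21 (-2.35 ± 0.24, adjusted p = 2.13e-06). For both, each progenitor array lay below each stem cell array. Ndn, an imprinted growth regulator, differed by -3.30 ± 0.30 and Cdkn1c, the imprinted CDK inhibitor p57, by -1.97 ± 0.21. Of 19 imprinted growth control genes 7 were lower and 0 higher, Meg3 (-2.26 ± 0.22) and Sgce (-1.69 ± 0.19) among them. Fgd5, a guanine nucleotide exchange factor used to mark stem cells, did not pass the test (-0.65 ± 0.26, adjusted p = 0.123). Its progenitor arrays read 10.82, 10.43 and 10.22, against 11.66, 10.96 and 10.80 in the stem cell fraction, so the groups overlapped. Procr, the endothelial protein C receptor, fell by 1.56 ± 0.27 (adjusted p = 0.000562) from 12.23, 11.36 and 11.29 to 9.73, 10.14 and 10.31.

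Of 22 stroma and endothelium genes 4 were lower and 1, the VEGF receptor gene Flt1, was higher (0.36 ± 0.11, adjusted p = 0.0459). Over all genes 6.51% were lower and 4.81% higher. Flt1 lost the call in the fit of the 6 arrays alone and in 5 of the 6 fits that left out 1 array, and kept it without KO LK GFPhi replicate 3 (0.45, adjusted p = 0.0272). The 4 lower ones were Col4a1, a basement membrane collagen (-1.86 ± 0.26), and the receptors Tek (-1.75 ± 0.30), Tie1 (-1.22 ± 0.25) and Kdr (-0.81 ± 0.19), of which Tek, Tie1 and Kdr are also on the stem cell list. Tie1 and Kdr lost the call in the fit of the 6 arrays alone, and Kdr without KO LSK GFPneg-lo replicate 2 (-0.56, adjusted p = 0.0636). The mean log2 signal of the list was 7.73 to 7.94 on the stem cell arrays and 7.32 to 7.63 on the progenitor arrays. Cdh5, VE-cadherin, differed by -0.15 ± 0.13 (adjusted p = 0.48), with 9.66 to 9.85 in the stem cell fraction and 9.33 to 9.81 in the progenitors. The part of such cells in the falls was not tested.

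Many erythroid and platelet genes fell. Of 25 erythroid genes 15 were lower and 0 higher (median -1.20), and of 24 megakaryocyte and platelet genes 12 were lower and 0 higher (median -0.89). Car1, carbonic anhydrase 1, read 12.71, 11.07 and 11.07 in the stem cell fraction and 7.90, 7.31 and 9.02 in the progenitors (-3.54 ± 0.48, adjusted p = 5.07e-05). Rhag, the Rhesus-associated glycoprotein, read 10.36, 9.40 and 9.44 against 6.20, 5.79 and 7.35 (-3.29 ± 0.42, adjusted p = 2.84e-05). In both genes progenitor replicate 3 was the highest of its group. Aqp1, a water channel, and Ermap, an erythroblast membrane protein, each differed by -2.71 ± 0.36. Among platelet genes, Vwf, von Willebrand factor, differed by -3.30 ± 0.52, Gp5, a subunit of its receptor, by -1.85 ± 0.23, Itgb3, the fibrinogen receptor beta chain, by -1.44 ± 0.22, and F2rl2, a thrombin receptor, by -1.65 ± 0.20. Gata1, the master regulator of both lineages, did not pass the test (-1.32 ± 0.45, adjusted p = 0.0666). Its progenitor arrays read 8.53, 9.51 and 10.99, the last within the 10.53 to 11.31 of the stem cell fraction. Without KO LK GFPhi replicate 3 the Gata1 difference was -1.98 (adjusted p = 0.00276). Klf1, a target and partner of GATA1, read 7.14, 7.62 and 9.28 in the progenitors against 9.87 to 10.10 (-1.99 ± 0.36, adjusted p = 0.0011), and was not called in the fit of the 6 arrays alone (adjusted p = 0.0786).

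The other large falls were spread over several functions. Clca3a1, a chloride channel regulator, read 9.85, 10.37 and 10.18 in the stem cell fraction and 5.90, 6.02 and 7.25 in the progenitors (-3.74 ± 0.35, adjusted p = 6.67e-07). Gimap8, a GTPase of lymphoid and stem cells, read 10.95, 10.54 and 10.42 against 7.27, 7.05 and 7.83 (-3.26 ± 0.20, adjusted p = 4.14e-09). Tjp1, the tight junction protein ZO-1, read 9.38, 8.56 and 9.06 against 5.22, 5.17 and 5.98 (-3.54 ± 0.32, adjusted p = 4.06e-07). In each of these the 2 groups were separated by more than 2 log2 units. Aldh1a1, a retinaldehyde dehydrogenase, differed by -3.56 ± 0.51 and read 8.11 on progenitor replicate 3, against 5.44 and 5.29 on the other 2. Cavin2, a caveola coat protein, differed by -3.56 ± 0.57 and lost the call in the fit of the 6 arrays alone (adjusted p = 0.0534). Iigp1, an interferon-induced GTPase, differed by -3.17 ± 0.41.

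Of 25 interferon response genes 10 were lower and 0 higher (median -0.63). Parp14, an ADP-ribosyltransferase, read 10.67, 10.18 and 10.06 in the stem cell fraction and 9.39, 9.51 and 8.94 in the progenitors (-1.02 ± 0.18, adjusted p = 0.001). Its groups did not overlap. Rsad2, the antiviral protein viperin, fell by 1.31 ± 0.31 and Ifit2 by 0.97 ± 0.21. The list's count was 4 without KO LSK GFPneg-lo replicate 1 and 5 without KO LK GFPhi replicate 1.

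Genes of mature granulocytes divided into some that rose far and others that did not pass the test. Lcn2, the iron-binding lipocalin of secondary granules, was the largest rise of all genes. It read 4.82, 5.28 and 5.51 in the stem cell fraction and 10.61, 9.99 and 9.47 in the progenitors (4.82 ± 0.30, 28.2-fold, adjusted p = 4.14e-09), with a wide gap between the groups. S100a8, a calcium-binding protein of neutrophils, read 5.11, 7.01 and 5.73 against 8.62, 9.90 and 7.54 (2.74 ± 0.48, adjusted p = 0.000741), and its call was lost in the fit of the 6 arrays alone. Pglyrp1, a peptidoglycan-binding granule protein, rose by 1.55 ± 0.26 (adjusted p = 0.000486). Of 17 mature neutrophil genes 8 were higher and 0 lower (median 0.53), and 3 were higher once the dimmest 40% of probe sets were left out. Ltf and Ngp, secondary granule genes chosen after their values were seen, differed by 0.04 ± 0.09 (adjusted p = 0.807) and 0.15 ± 0.11 (adjusted p = 0.408).

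Eosinophil genes differed most between arrays of the same group. Of 7 measured, 4 were higher and 0 lower (median 1.91). Epx, eosinophil peroxidase, read 5.74, 5.63 and 5.77 in the stem cell fraction and 6.81, 8.85 and 11.66 in the progenitors (3.39 ± 0.66, adjusted p = 0.00192). Prg2, the major basic protein, read 7.25, 6.61 and 6.64 against 8.27, 10.18 and 11.96 (3.31 ± 0.56, adjusted p = 0.000531). Every progenitor array exceeded every stem cell array, and replicate 3 was the highest by more than 1 log2 unit in both. Prg3, a homologue of Prg2, rose by 2.01 ± 0.42 and Siglecf, a surface lectin of eosinophils, by 1.91 ± 0.41. All 4 calls were lost in the fit of the 6 arrays alone, with adjusted p from 0.0767 to 0.154. Without KO LK GFPhi replicate 3, Epx stayed called at 2.12 (adjusted p = 0.00067) and Prg3 at 1.20 (adjusted p = 0.00272). The mean log2 level of the list was 5.85 to 5.99 on the stem cell arrays and 6.52, 7.40 and 8.47 on progenitor replicates 1, 2 and 3.

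Progenitor replicate 3 also had the highest erythroid list mean of its group, 8.13 against 7.47 and 7.48, while the stem cell arrays lay between 8.81 and 8.99. Eif2s3y, a gene of the Y chromosome, read 7.58 and 7.74 on progenitor replicates 2 and 3 and 4.01 on replicate 1, and 4.13, 7.99 and 4.01 on the stem cell arrays. Most WT arrays read higher, with 9.92, 8.04 and 9.31 in the WT stem cell fraction and 10.18, 7.95 and 9.62 in the WT progenitors. Xist, a gene of the X chromosome, read 13.36, 13.18 and 13.30 on the KO stem cell arrays and 13.18, 12.97 and 12.41 on the KO progenitor arrays. Whether an array holds RNA of both sexes was not tested. With the Eif2s3y level as a covariate, 1750 genes were called. Without replicate 3 of the progenitors, 1559 genes were called. The part of this array's makeup in the eosinophil and erythroid values was not tested.

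Of 10 MHC class II genes, 5 were higher in the KO progenitors, 4 were not called and 1, H2-Ob, was lower (-0.80 ± 0.25), with a median of 0.33. H2-Aa, an MHC class II alpha chain, read 8.97, 9.22 and 8.43 in the stem cell fraction and 12.42, 10.47 and 12.54 in the progenitors (2.94 ± 0.47, adjusted p = 0.000362). H2-Eb1, a beta chain, read 7.64, 7.56 and 7.11 against 10.25, 8.20 and 10.51 (2.22 ± 0.41, adjusted p = 0.00128). Cd74, the invariant chain, read 8.26, 7.98 and 7.39 against 10.70, 8.29 and 10.78 (2.04 ± 0.46, adjusted p = 0.00655). Replicate 2 was the lowest of the progenitor arrays for all 3 genes, and for Cd74 it lay just above the highest stem cell array. The calls of H2-Eb1 and Cd74 were lost in the fit of the 6 arrays alone. In that fit 1 gene of the list was higher and 0 lower. The H2-Ob call stayed only in the fits without KO LSK GFPneg-lo replicate 3 or KO LK GFPhi replicate 3, of the 6 that left out 1 array. Replicate 2 was also the low array for Mpeg1, as given above. Of 13 dendritic cell genes 2 were higher and 0 lower, Batf3 (0.54 ± 0.15) and Itgax (0.37 ± 0.10), against 4.81% higher over all genes. Neither was called in the fit of the 6 arrays alone. Batf3 also lost the call without KO LSK GFPneg-lo replicate 1 (0.51) or 2 (0.47) or KO LK GFPhi replicate 1 (0.54) or 3 (0.37), and Itgax without KO LSK GFPneg-lo replicate 1 (0.31) or KO LK GFPhi replicate 2 (0.33). Of 18 B lineage genes 1 was higher, the surrogate light chain gene Igll1 (0.71 ± 0.20), and 1 lower, Bach2. These counts lie near the shares of all genes, 4.81% higher and 6.51% lower. Igll1 was not called in the fit of the 6 arrays alone, nor without KO LSK GFPneg-lo replicate 1 (0.61) or 2 (0.73) or KO LK GFPhi replicate 3 (0.45), and it read 0.25 (limma adjusted p = 0.395) without cross-hybridising probe sets.

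**Figure D3:**
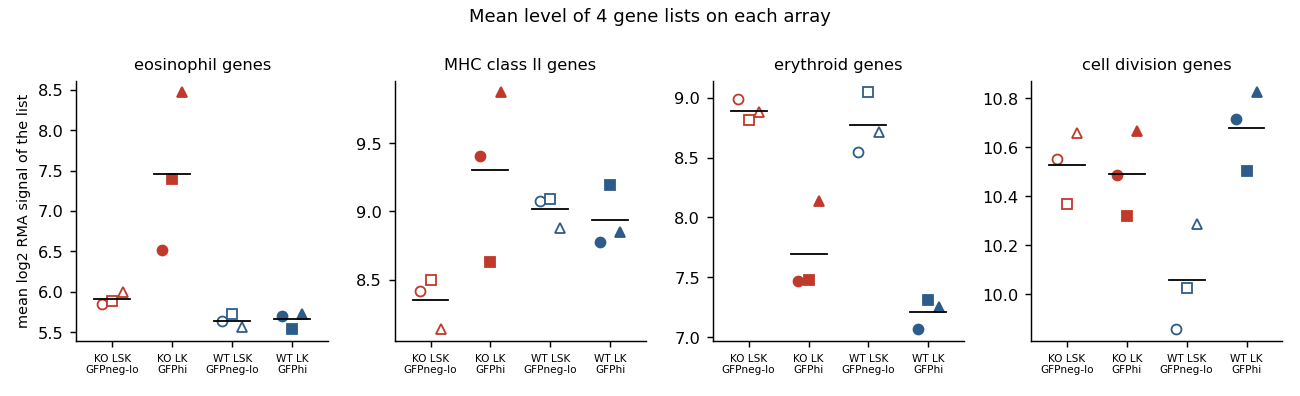
Mean log2 RMA signal of 4 gene lists on each array (circle, replicate 1; square, 2; triangle, 3; line, group mean), KO in red and WT in blue, open symbols for LSK GFPneg-lo and filled for LK GFPhi; each panel has its own axis, which does not start at 0. The KO LK GFPhi arrays spread from 6.52 to 8.47 for eosinophil genes and from 8.63 to 9.87 for MHC class II genes, and the cell division means of both KO groups overlap.

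Mast cell and basophil genes gave 3 higher and 0 lower of 17. Mcpt8, a basophil protease, read 8.57, 8.53 and 8.74 in the stem cell fraction and 11.23, 10.50 and 11.65 in the progenitors (2.52 ± 0.26, adjusted p = 2.3e-06). Cpa3, mast cell carboxypeptidase, read 9.45, 9.61 and 9.69 against 10.95, 10.61 and 11.96 (1.59 ± 0.30, adjusted p = 0.0014). Hdc, the enzyme of histamine synthesis, rose by 2.78 ± 0.50. All 3 had groups that did not overlap.

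Cell division genes had no call in the fit of all arrays. Of 44 genes of cell division and DNA replication, 0 were higher and 0 lower by limma, with a median of -0.01 and differences from -0.79 to 0.43, and 7 of them had an unadjusted p below 0.05. Mki67, the proliferation antigen Ki-67, read 12.76, 12.21 and 12.74 in the stem cell fraction and 12.41, 11.54 and 12.09 in the progenitors (-0.56 ± 0.26, adjusted p = 0.175). Its groups overlapped, and with array weights Mki67 was called lower (-0.71, adjusted p = 0.0425). Of 12 CDK inhibitors and D cyclins with their kinases, 4 were lower and 0 higher. They were Cdkn1c, Ccnd3, cyclin D3 (-0.82 ± 0.14), Cdkn2d, the p19 inhibitor of CDK4 and CDK6 (-0.81 ± 0.14), and the kinase Cdk6 (-0.32 ± 0.10, adjusted p = 0.0429). The Cdk6 call was lost in 5 of 6 fits that left out 1 array, and stayed only without KO LK GFPhi replicate 1. Among 28 ribosome biogenesis genes and 33 cytosolic ribosomal protein genes there was no call by limma, with 4 and 0 at an unadjusted p below 0.05. Of 31 genes of endoplasmic reticulum folding and secretion 6 were higher and 0 lower (median 0.43). The count was 3 in the fit of the 6 arrays alone, 2 without KO LSK GFPneg-lo replicate 2, 3 without KO LSK GFPneg-lo replicate 3 or KO LK GFPhi replicate 3, and 4 without KO LK GFPhi replicate 2. Manf, a secreted stress protein, rose by 1.06 ± 0.26 (adjusted p = 0.0112), which was not called without KO LSK GFPneg-lo replicate 2 (0.93, adjusted p = 0.0568).

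Metabolic genes changed in a few steps. Hk3, the hexokinase of myeloid cells, read 10.45, 9.89 and 9.91 in the stem cell fraction and 11.89, 12.02 and 11.48 in the progenitors (1.72 ± 0.16, adjusted p = 8.59e-07), with no overlap. Without probe sets prone to cross-hybridisation the rise of Hk3 was 1.05 (adjusted p = 0.00506), and the fall of Meg3, given above, was -3.67. Aldoa, an aldolase, rose by 0.76 ± 0.15 and Ldhb, the heart-type lactate dehydrogenase subunit, by 0.80 ± 0.18. In all, 5 of 16 glycolysis genes were higher and 1 lower, and 3 were higher without KO LSK GFPneg-lo replicate 2. The lower one, the glucose transporter gene Slc2a3, fell by 1.88 ± 0.15, but the probe set left gave a difference of 0.18 (adjusted p = 0.268) when probe sets prone to cross-hybridisation were left out. Alas1, the first enzyme of heme synthesis outside red cells, rose by 1.96 ± 0.33 and Cpox, a late enzyme of the pathway, fell by 1.56 ± 0.28. Pmaip1, the proapoptotic BH3 protein Noxa, was the 1 gene called higher among 13 of the Bcl2 family (1.96 ± 0.27, adjusted p = 7.43e-05), and 0 were lower. Over all genes 4.81% were higher.

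Early lymphoid genes moved in both directions. Of 21, 3 were higher (Satb1, Ighm and Btla) and 4 lower (Ltb, Ets1, Gata3 and Lax1), with a median of -0.02. Satb1, a chromatin organiser of lymphoid progenitors, read 8.67, 7.66 and 8.08 in the stem cell fraction and 9.82, 9.20 and 9.85 in the progenitors (1.48 ± 0.31, adjusted p = 0.00399). Ighm, the immunoglobulin mu heavy chain, rose by 2.45 ± 0.36, and by 0.57 when its probe sets were averaged. Ltb, lymphotoxin beta, differed by -2.31 ± 0.34 and Ets1, a lymphoid ETS factor, by -1.68 ± 0.33. Bach2, a repressor of B lineage cells, fell by 1.25 ± 0.23 (adjusted p = 0.00115) from 9.21, 8.65 and 8.71 to 7.51, 7.79 and 7.53. Il7r, the interleukin 7 receptor, read 7.15, 7.50 and 7.16 against 7.19, 6.76 and 7.70 (-0.06 ± 0.26, adjusted p = 0.908), so the groups overlapped. Dntt, the terminal transferase of antigen receptor genes, read 8.48 and 8.45 on progenitor replicates 1 and 2 and 11.39 on replicate 3, against 8.11 to 8.40 in the stem cell fraction (1.19 ± 0.48, adjusted p = 0.117). Flt3, a receptor of early progenitors, differed by 0.54 ± 0.29 (adjusted p = 0.246), and passed the test without KO LK GFPhi replicate 2 (0.93, adjusted p = 0.0322). Dntt passed without KO LK GFPhi replicate 1 (1.67, adjusted p = 0.0337) or 2 (1.69, adjusted p = 0.0364).

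The same populations with Ikaros give the values to set beside these. In WT, 2299 genes (12.6%) were called, 861 higher (4.73%) and 1438 lower (7.9%), and 3895 with the replicate number as a block. Of the 875 genes higher in KO, 292 were also higher in WT, 6 were lower and 577 were not called. Of the 1185 lower in KO, 704 were also lower in WT, 2 were higher and 479 were not called. Differences in the 2 genotypes, which share no arrays, had a correlation of 0.664 over all genes, given as a description. The difference of differences, KO minus WT, was tested as an interaction, and 187 genes (1.03%) were called, 118 higher (0.649%) and 69 lower (0.379%). When arrays were centred on their medians, the higher share of interaction calls was 50.9% in place of 63.1%, and the higher share of WT calls 48.7% in place of 37.5%. The interaction count fell to 103 without KO LSK GFPneg-lo replicate 3, 113 or 107 without WT LSK GFPneg-lo replicate 1 or 2, and 107 or 113 without WT LK GFPhi replicate 1 or 3. A fit of the 12 arrays alone called 57.

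**Figure D4:**
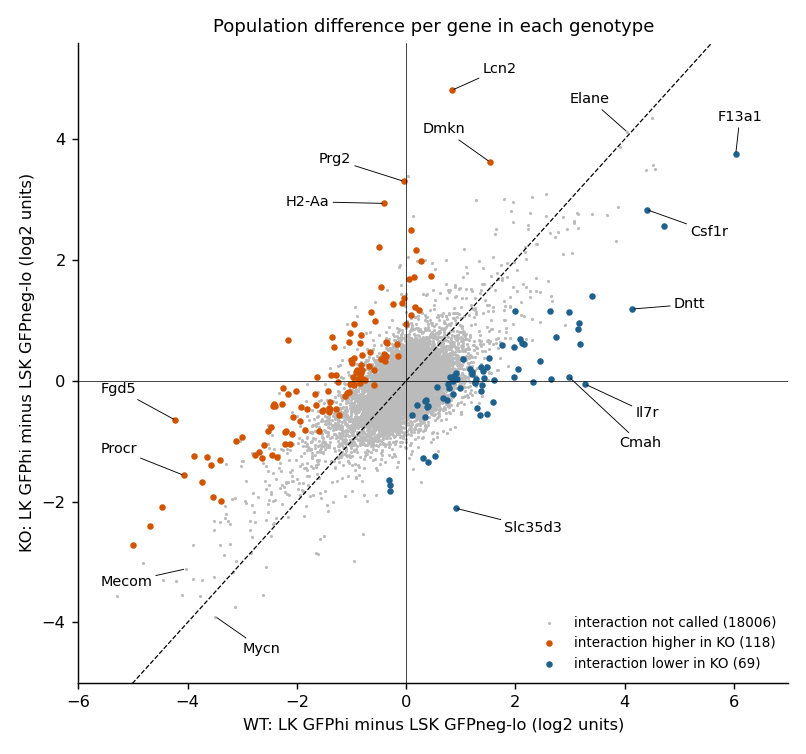
Difference LK GFPhi minus LSK GFPneg-lo of each of 18193 genes in WT (horizontal, log2 units) and KO (vertical, log2 units); the dashed line marks equal differences, and colour marks genes whose interaction was called. Elane, Mecom and Mycn lie among the uncoloured genes, Lcn2, Fgd5 and Procr among the 118 higher in KO, and Il7r, Cmah and Csf1r among the 69 lower.

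Interaction calls fell into a few patterns. Of the 118 higher, 54 were lower in WT and not called in KO, 33 were lower in both, 23 were higher in KO alone, 6 were called in opposite directions and 2 were higher in both. Of the 69 lower, 43 were higher in WT and not called in KO, 13 were higher in both, 11 were lower in KO alone and 2 were called in opposite directions. Falls of stem cell genes were smaller in KO for Procr, Gata2 and Fgd5. Fgd5 fell by 4.22 ± 0.26 in WT, to 5.69, 6.14 and 5.34, and its interaction was 3.57 ± 0.37 (adjusted p = 2.94e-05). Procr fell by 4.07 ± 0.27 in WT and its interaction was 2.51 ± 0.38 (adjusted p = 0.00153), and Gata2 fell by 2.20 ± 0.18 in WT, with an interaction of 1.38 ± 0.25 (adjusted p = 0.00889). The WT progenitor arrays lay below the KO progenitor arrays in all 3 genes. Myct1, a MYC target gene on the list of stem cell transcription factors that was named after its values were seen, fell by 1.39 ± 0.27 in KO and 3.57 ± 0.27 in WT (interaction 2.18 ± 0.38, adjusted p = 0.00647). The lists of stem cell transcription factors and of stem cell marker genes each held 2 interaction calls in all, against 5 and 5 with the replicate number as a block and 7 and 3 with array weights.

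Rises present in KO and not called in WT were led by Lcn2. On the WT arrays Lcn2 read 4.37, 4.49 and 4.41 in the stem cell fraction and 5.18, 4.51 and 6.12 in the progenitors (0.85 ± 0.30, adjusted p = 0.0718), and the interaction was 3.97 ± 0.42 (adjusted p = 3.09e-05). Pglyrp1 differed by -0.45 ± 0.26 in WT (interaction 2.0 ± 0.36, adjusted p = 0.00824). Both genes kept the call in every alternative fit in which they were measured. H2-Aa differed by -0.41 ± 0.47 in WT, where it read 10.66 to 11.38 in the stem cell fraction and 10.32 to 11.10 in the progenitors (interaction 3.35 ± 0.67, adjusted p = 0.0172). The KO stem cell arrays, at 8.43 to 9.22, were the low group for H2-Aa. Its interaction was lost without KO LSK GFPneg-lo replicate 3 (3.12), WT LSK GFPneg-lo replicate 1 (3.17) or WT LK GFPhi replicate 3 (3.20), with adjusted p of 0.052 to 0.0598. For Prg2 the WT arrays ranged from 5.07 to 5.88, and the interaction of 3.35 ± 0.79 (adjusted p = 0.0444) was lost in 10 of 12 fits that left out 1 array. The interaction of Epx was not called (3.36 ± 0.93, adjusted p = 0.102).

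Rises of WT that were missing or smaller in KO included lymphoid and monocyte genes. Il7r rose by 3.28 ± 0.26 in WT, to 9.74, 10.25 and 9.99, and its interaction was -3.33 ± 0.36 (adjusted p = 4.31e-05). Cmah, a sialic acid hydroxylase, rose by 2.99 ± 0.24 in WT (interaction -2.92 ± 0.33, adjusted p = 7.89e-05), and Cd300lb, an activating receptor of myeloid cells, by 3.19 ± 0.17 (interaction -2.58 ± 0.24, adjusted p = 1.01e-05). With its probe sets averaged, the Cmah interaction was -0.81 (limma adjusted p = 0.0198). Among early lymphoid genes 11 were higher and 4 lower in WT, and the interaction was lower for 3 of 21, Il7r, Dntt and Rag1, which encodes the recombinase of antigen receptor genes and was named after its values were seen (-1.59 ± 0.17). The interaction of Dntt (-2.95 ± 0.67, adjusted p = 0.0391) was lost in 11 of 12 fits that left out 1 array. Ly86, a partner of the Toll-like receptor homologue RP105, rose in both genotypes, by 2.56 ± 0.30 in KO and 4.73 ± 0.30 in WT (interaction -2.17 ± 0.42, adjusted p = 0.0129). The median of the cell division list was 0.64 in WT, with 24 of 44 genes higher and 0 lower, and the interaction was lower for 2 of them, Top2a and Cenpf, both chosen after their values were seen. The mean log2 level of this list was 10.37 to 10.66 on the KO stem cell arrays and 9.86 to 10.29 on the WT ones. On the progenitor arrays it was 10.32 to 10.67 in KO and 10.50 to 10.82 in WT. The genotypes thus lay further apart in the stem cell fraction. The WT count was 7 or 9 without WT LSK GFPneg-lo replicate 1 or 2, and 11 or 6 without WT LK GFPhi replicate 1 or 3.

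**Figure D5:**
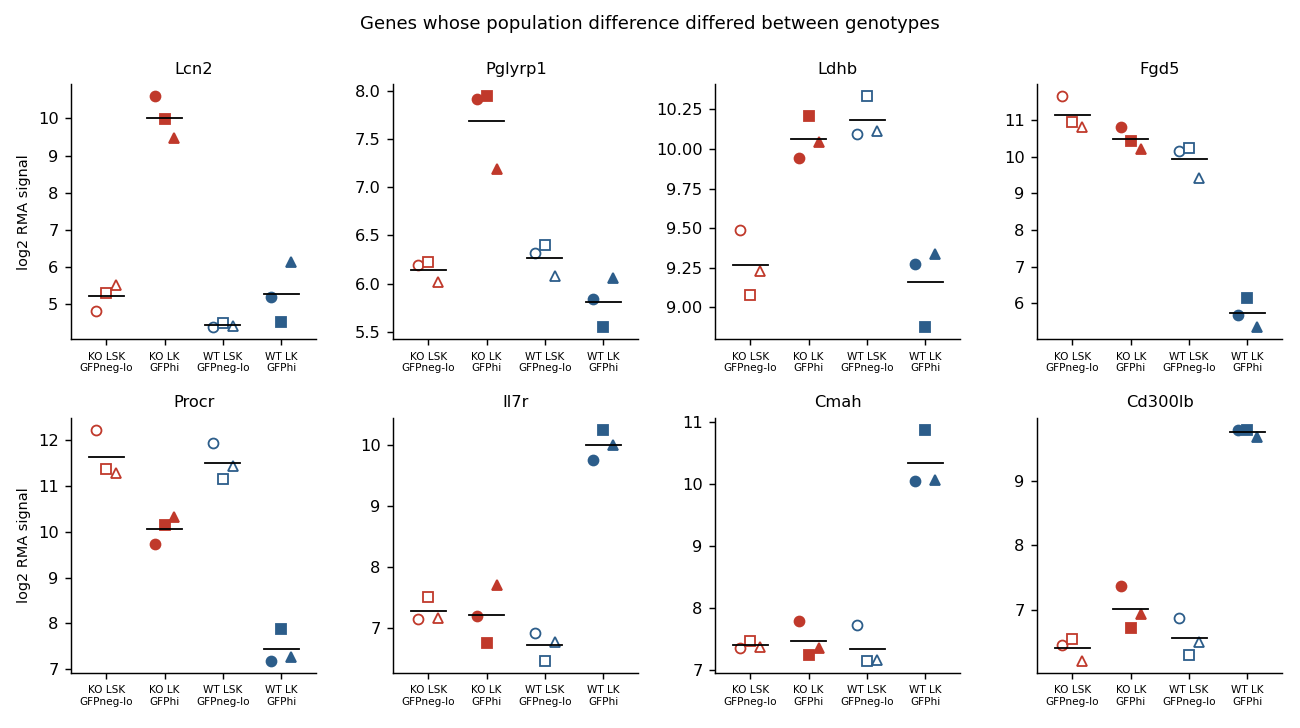
Log2 RMA signal of 8 genes whose interaction was called, on each array (circle, replicate 1; square, 2; triangle, 3; line, group mean), KO in red and WT in blue, open symbols for LSK GFPneg-lo and filled for LK GFPhi; each panel has its own axis, which does not start at 0. Lcn2 and Pglyrp1 are high on the 3 KO LK GFPhi arrays, Fgd5 and Procr are low on the 3 WT LK GFPhi arrays, and Il7r, Cmah and Cd300lb are high on those WT arrays.

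Only 8 genes were called in opposite directions in the 2 genotypes. All 8 had a called interaction, which adds no support. The interaction is the KO minus the WT difference of the same fit, so 2 opposite calls nearly fix it. Actn1, Cd200r4, Dmxl2, Gm31718, Ldhb and Slc6a13 were higher in KO and lower in WT, and Cdk6 and Fbxo5 were lower in KO and higher in WT. All but Ldhb and Cdk6 were named after their values were seen. Ldhb read 9.49, 9.08 and 9.23 in the KO stem cell fraction and 9.94, 10.21 and 10.04 in the KO progenitors, and 10.09, 10.33 and 10.12 against 9.27, 8.88 and 9.34 in WT. The 2 pairs of groups are thus turned round, with differences of 0.80 ± 0.18 and -1.02 ± 0.18 and an interaction of 1.82 ± 0.25 (adjusted p = 0.000767). Cd200r4, an activating receptor of myeloid cells, gave 1.15 ± 0.21 and -0.64 ± 0.21 (interaction 1.79 ± 0.29, adjusted p = 0.00383). Fbxo5, the inhibitor EMI1 of the anaphase-promoting complex, gave -0.42 ± 0.10 and 0.40 ± 0.10 (interaction -0.81 ± 0.15, adjusted p = 0.00802).

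The 23 granule and 26 myeloid transcription factor genes held no called interaction. Since 1.03% of all genes had one, few or none would be found in lists of this size in any case. The interaction was 0.07 ± 0.58 for Elane (95% interval -1.15 to 1.28), 0.01 ± 0.44 for Mpo (-0.92 to 0.94) and 0.13 ± 0.25 for Cebpa (-0.38 to 0.65). These values include WT LK GFPhi replicate 2, the low array of its group for granule genes. Its granule list mean was 10.31, against 11.28 and 11.06 on replicates 1 and 3. Elane read 9.94 on it against 12.16 and 11.71, and Mpo 13.82 against 14.01 and 13.99. Without that array 270 interactions were called, and its part in the values given here was not tested. For Ctsg the interaction was -0.93 ± 0.40 (adjusted p = 0.388) and for Prtn3 -1.08 ± 0.39 (adjusted p = 0.26), the limma p being 0.0323 and 0.0112 before adjustment. For Irf8 it was -1.01 ± 0.44 (-1.92 to -0.10, adjusted p = 0.384) and for Spi1 0.61 ± 0.34 (-0.10 to 1.33, adjusted p = 0.546). Among monocyte and receptor genes, Csf1r (-1.58 ± 0.34, adjusted p = 0.0275), F13a1 (-2.27 ± 0.53, adjusted p = 0.0444) and Ly86 were called. The calls of Csf1r and F13a1 were lost in 7 and 9 of 12 fits that left out 1 array. Mean Csf1r was 9.77 in KO and 8.31 in WT in the stem cell fraction, and 12.6 and 12.7 in the progenitors. Its genotypes thus differed mainly in the stem cell fraction. For F13a1 the means were 7.89 and 6.17, then 11.65 and 12.21. In all, the receptor list held 2 higher and 2 lower interaction calls, and the monocyte list 1 higher and 4 lower. An interaction that was not called does not show that the 2 genotypes changed alike, since the intervals of Elane and Mpo allow differences of about 1 log2 unit either way.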

How the data were processed

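RNA from cells sorted by the Ikaros reporter was hybridised to Affymetrix arrays, and the authors deposited log2 values made with RMA, per the submitters' processing notes; the RMA version was not given in those sources. Of 45101 probe sets, 34945 had 1 gene symbol (34741 matched the RefSeq gene table), and the brightest probe set on average stood for each of 18193 genes. Means of the 8 groups were fitted over all 24 arrays with limma 3.58.1 in R 4.3.3, with Benjamini-Hochberg adjustment over all genes and a threshold of 0.05. The number of arrays limits the precision: on simulated data the KO comparison recovered 83.6% of changes of 1 log2 unit and the interaction 56.7%. The simulated arrays were independent, with the same SD in each group for a gene and 200 genes changed in KO LK GFPhi. Arrays that deviate together, groups of unequal spread and larger numbers of changed genes were not simulated, so recovery in the real data can differ. Same-numbered WT arrays deviated together (r of 0.634, 0.495 and 0.254), so a block on the number is given for WT.

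Genes were named by rule: the 12 largest rises and falls without overlap, the 8 largest interactions each way, for each list the 4 or fewer called genes of lowest adjusted p, and a panel. Etv3, Flt1, H2-Ob, Btla, Gata3, Lax1, Myct1, Rag1, Prdm16, Ltf, Ngp, Top2a, Cenpf, Actn1, Cd200r4, Dmxl2, Gm31718, Slc6a13 and Fbxo5 were named after their values were seen. Members and lists were chosen with earlier results of these data known. Promoters are RefSeq's. Alternatives were a fit of the compared arrays alone, a replicate block, filters on dim or cross-hybridising probe sets, probe set averaging, another variance prior, array weights, other normalizations, a 2-fold minimum, leaving out each array and, chosen after seeing the data, the Eif2s3y level as a covariate.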

Additional observations from a re-analysis of the deposited data

Results flagged for a closer look

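The change from LSK GFPneg-lo to LK GFPhi differed between KO and WT, by the limma interaction test, for 28 genes that the naming rule had chosen. The values below are KO differences minus WT differences in log2 units, and genotype and strain background cannot be told apart in them. The Y chromosome gene Eif2s3y also read higher on most WT arrays, and the part of sex in these values was not tested.

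Values above 0 were found for stem cell genes with a smaller fall in KO, namely Fgd5 (3.57), Procr (2.51) and Gata2 (1.38). Phldb2 (2.85), the apolipoprotein gene Apoe (2.63) and the platelet integrin gene Itga2b (1.55) also had values above 0. The others above 0 were Lcn2 (3.97), Pglyrp1 (2.0), Prg2 (3.35), H2-Aa (3.35), H2-Eb1 (2.71), Dmkn (2.10) and Ldhb (1.82).

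Values below 0 were found for the lymphoid genes Il7r (-3.33), Dntt (-2.95) and Bach2 (-1.78). Among monocyte and receptor genes they were found for Csf1r (-1.58), F13a1 (-2.27), Cd300lb (-2.58), Ly86 (-2.17) and Tlr1 (-1.17). The others were Slc35d3, a nucleotide sugar transporter family gene (-3.01), Cmah (-2.92), Tpm4, a tropomyosin (-2.62), Il6st, the shared receptor subunit of interleukin 6 cytokines (-2.34), Pkib, a protein kinase inhibitor (-2.30), F2rl2 (-1.33) and Cdk6 (-0.69).

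In the alternative fits in which they were measured, 11 of the 28 kept the call throughout, Lcn2, Fgd5, Procr, Gata2, Pglyrp1, Phldb2, Il7r, Cmah, Cd300lb, Ldhb and Ly86. Averaging all probe sets of a gene took the values of Cmah to -0.81, Il6st to -1.27 and Pkib to -1.37, all still called. The call was lost in at least 1 of the 12 fits that left out 1 array for 15 others, among them Dntt (11 fits), Prg2 (10), F13a1 (9), Pkib and Slc35d3 (8 each) and Csf1r and H2-Eb1 (7 each).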

How the results depend on the processing

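The KO count of 2060 was 783 with the 6 arrays alone, 4105 with the replicate block, 544 with a 2-fold minimum and 1179 to 1956 when 1 KO array was left out; all other alternatives gave within 1.5 times the count. The WT count of 2299 was 3895 with the replicate block, 4092 with array weights, 860 with a 2-fold minimum and 1542 to 2809 when 1 WT array was left out. The interaction count of 187 was 57 with the 12 arrays alone, 1000 with the replicate block, 685 with array weights and 103 to 270 when 1 array was left out. Same-numbered KO arrays had r of 0.459, 0.541 and 0.0832, the last below the minimum of 0.1 used, so their numbers were not taken to pair them. The first 2 were near the WT values. The block fit still held offsets for the replicate numbers of both genotypes, so its KO and interaction counts do use that pairing. With the block, 3 cell division genes were called higher and 6 lower in KO, and Kit, Mki67, Myc and Gata1 passed the test.

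The higher share of interaction calls, 63.1%, was 49.1% with the block and 47.9% with weights, and that of WT calls, 37.5%, was 49.1% with weights. Of 127 named genes called in KO, 85 were counted as called in every alternative fit that measured them, the 2-fold minimum aside. Of the 127, 40 lost the call with the 6 arrays alone and 25 when some array was left out. The 85 include Slc2a3, although it was not called without probe sets ending in _x_at or _s_at. In that fit its difference of -1.88 turned to 0.178 (limma adjusted p = 0.268). The causes were not tested.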
